A study of Mus musculus with 4 samples.

Results

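The expression of 10 heat shock protein genes, Hspa1a, Hspa1b, Hspa8, Hsp90aa1, Hsp90ab1, Hsph1, Dnajb1, Hspb1, Hspd1 and Hspe1, was examined in murine 4T1 cells treated with an iron chelator. The genes were taken by their symbols from a table of 49585 genes, and all 10 were found. 4T1 is a mouse mammary carcinoma line used as a model of triple–negative breast cancer. The study used a highly metastatic (4T1–HM) and a lowly metastatic (4T1–LM) derivative of it, each of them 1 clone grown from a single cell, and asked by RNA–seq why the clones tolerate changes in iron differently. The libraries are HM_Ctrl and LM_Ctrl, given DMSO alone for 48 h, and HM_DFX and LM_DFX, given 50 μmol/L of the oral iron chelator deferasirox (DFX) dissolved in DMSO for the same 48 h. Each of the 4 conditions is 1 library of cultured cells, so the differences below could not be checked against replicates and carry no p–values.

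Heat shock proteins are chaperones, which bind unfolded proteins and help them reach or regain their shape. HSP70 proteins hold and release unfolded stretches under the control of J–domain proteins and nucleotide exchange factors, HSP90 proteins finish the folding of kinases and steroid receptors, and the chaperonin of mitochondria encloses single chains. When unfolded protein accumulates, the transcription factor HSF1 binds heat shock elements, which are inverted repeats of the unit GAA, and raises the transcription of many of these genes. Tumor cells are known to carry high levels of several of them.

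Expression was measured as FPKM, the fragments on a gene scaled for its length and for the total of the library. The totals recovered from the steps of the values were 14363067 to 21883854 fragments. A gene was taken as expressed where its FPKM reached 1 in any library (12669 genes), and 8 of the 10 members were among them, each above 1 in all 4 libraries. Changes are log2 ratios of FPKM + 1, which understate the change of a low gene, and a change of 2-fold or more was called. Fold values with an interval are ratios of fragments scaled to the library total, without the added 1, with exact 95% intervals that cover counting error only. The culture was checked by marker genes. Of 10 epithelial markers 9 were expressed, and their summed FPKM was 1896 and 2393 in HM_Ctrl and LM_Ctrl against 627 and 1179 in HM_DFX and LM_DFX. Keratins Krt8, Krt18 and Krt7 carried most of this sum, whereas Krt19 was called higher with DFX in 4T1–LM (46.4 against 103) and Cldn4 stayed at 43.2 there. Of 8 leukocyte markers only Cd68, a lysosomal glycoprotein of macrophages, was expressed, and the summed level was 12.3 to 13.2 in the controls and 38 to 83.2 with DFX, while Ptprc, which defines leukocytes, was listed at no more than 0.0139. The 9 fibroblast and endothelial markers summed to 3.58 to 5.67. Of the receptors by which triple–negative cancer is defined, Pgr was listed at 0, Esr1 at no more than 0.529 and Erbb2 at 12.5, 3.8, 11.8 and 4.71 in HM_Ctrl, HM_DFX, LM_Ctrl and LM_DFX. With DFX the epithelial sum was lower and the leukocyte sum, nearly all of it Cd68, was higher in both clones. The part of these shifts in the results below was not tested. In such bulk samples, a change in the kinds of cells and a change in the RNA per cell cannot be told apart.

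Hsp90ab1 was the most abundant in every library and stood between rank 10 and rank 29 of all genes in the table. Hsp90aa1, Hspa8, Hspd1 and Hspe1 followed, with FPKM of 86.5 or more. Hsph1, Hspa1b and Dnajb1 lay between 5.62 and 54.5, and Hspa1a and Hspb1 did not reach 0.2 in any library. The 10 genes summed to an FPKM of 2779 in HM_Ctrl against 2386 in HM_DFX, and 3479 in LM_Ctrl against 2218 in LM_DFX. This was 0.854%, 0.727%, 1.03% and 0.650% of all summed FPKM, so the share was lower with DFX in both clones. The ratio of the DFX sum to the control sum was 0.859 in 4T1–HM and 0.638 in 4T1–LM.

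**Figure D1:**
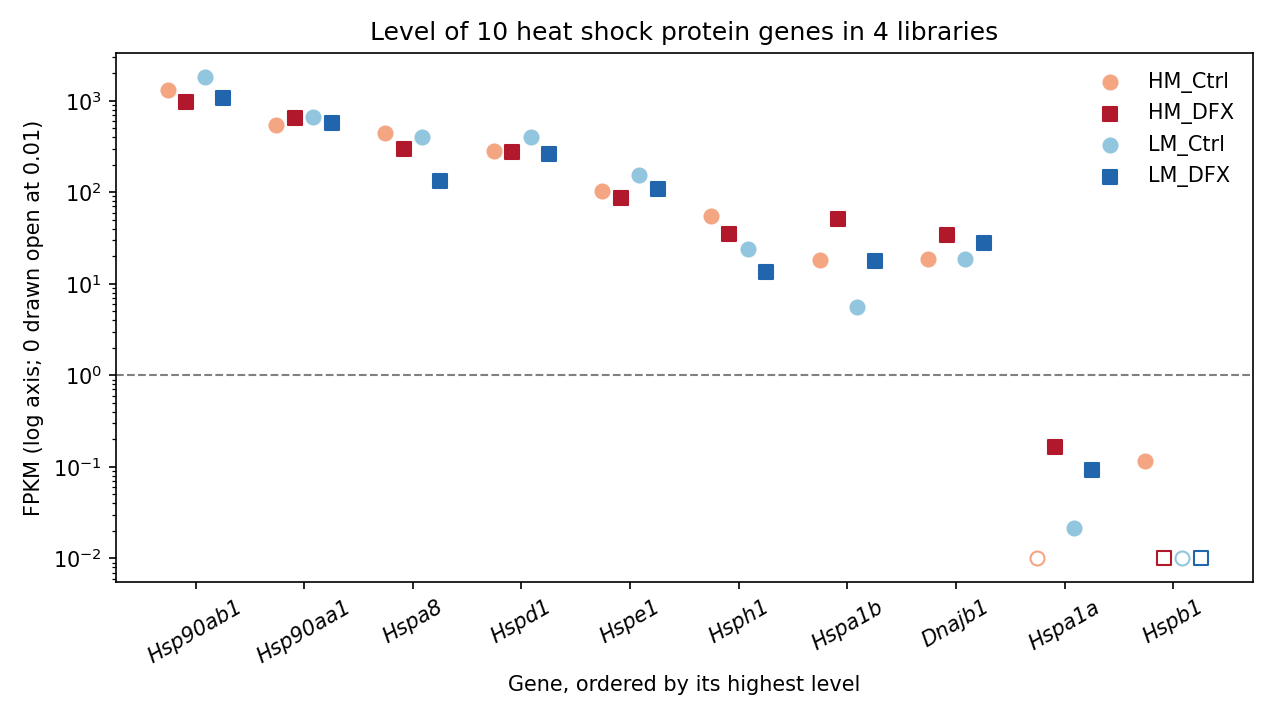
FPKM of each of the 10 genes (log axis) in HM_Ctrl, HM_DFX, LM_Ctrl and LM_DFX, 1 point per library, with values of 0 drawn as open points at 0.01 and a dashed line at 1. The 8 expressed genes lie above the line in every library, from 5.62 for Hspa1b in LM_Ctrl to 1814 for Hsp90ab1 in LM_Ctrl, and Hspa1a and Hspb1 lie below it.

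With DFX in 4T1–HM, 1 of the 8 expressed members was at least 2-fold higher (Hspa1b) and 0 were lower, where 6.93% of all expressed genes were called higher and 12.4% lower. The members ranged from −0.63 for Hsph1 to 1.44 for Hspa1b on the log2 scale, and their median of −0.14 was close to the −0.10 of all expressed genes. In 4T1–LM, 1 was higher (Hspa1b) and 1 was lower (Hspa8), beside 7.09% higher and 8.72% lower of all genes. The median of the members was −0.57 and that of all genes −0.04, and 6 of the 8 members were below 0. Hspa1b and Dnajb1 were the highest in both clones. Over 8 genes each of these shares comes to less than 1 gene, so single calls are near the background.

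**Figure D2:**
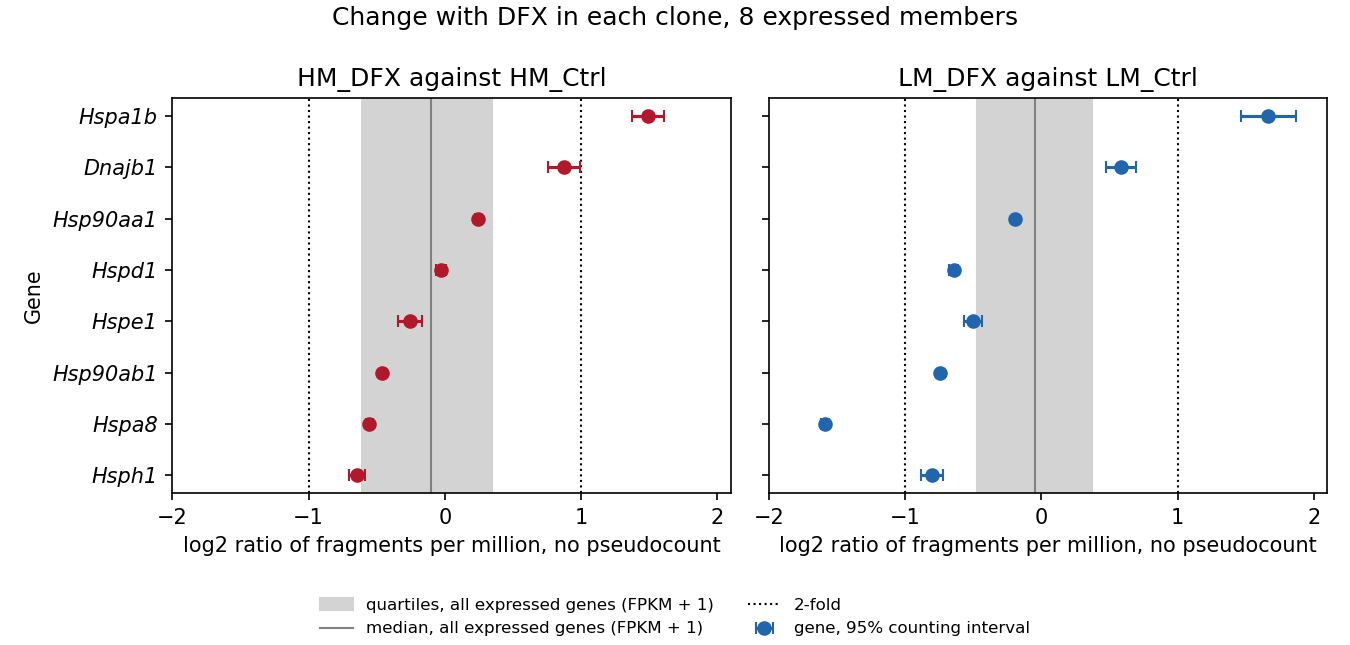
log2 ratio of fragments, scaled to the library total, between DFX and control for the 8 expressed genes in 4T1–HM (left) and 4T1–LM (right), 1 library against 1, with 95% counting intervals, the median and quartiles of all expressed genes (on the FPKM + 1 scale) in grey and 2-fold lines dotted. Hspa1b lies past the 2-fold line in both clones and Hspa8 in 4T1–LM, where 5 of the 8 genes lie below the grey band.

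Without DFX, 2 of the 8 were called higher in HM_Ctrl than in LM_Ctrl, Hspa1b and Hsph1, and 0 lower, where 3.65% of all genes were higher and 3.15% lower. With DFX 3 were called higher in HM_DFX than in LM_DFX, Hspa1b, Hsph1 and Hspa8, and 0 lower, where 3.31% of all genes were higher and 5.05% lower. Both comparisons of the clones share libraries with the comparisons of DFX. For the difference between the DFX changes of the clones, 1 of the 8 was called, Hspa8, higher in 4T1–HM, beside 3.52% of all genes higher and 5.38% lower. In 7 of the 8 genes the log2 change was the higher one in 4T1–HM, by 0.13 for Hsph1 to 1.03 for Hspa8, with Hspa1b at −0.06 as the exception. The median difference was 0.28 against −0.08 over all genes. Of all expressed genes, 51.1% lay below the −0.06 of Hspa1b and 67.2% below the 0.13 of Hsph1. All 8 differences rest on the same 4 libraries, so they are not separate observations.

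Hspa1a and Hspa1b encode the stress–inducible cytosolic HSP70. They are neighboring copies on the minus strand of chromosome 17 of mm10, Hspa1a from 34969190 to 34972156 and Hspa1b from 34956436 to 34959238. Their promoters are shown because the copies share nearly the same upstream sequence and yet were listed at very different levels. The RefSeq windows of 250 bases before each start (build GRCm38.p6, minus strand) differ at 3 positions. Capitals mark GAANNTTC, a pair of heat shock units facing each other, whose first base is 104 bases before both starts. The same letters occur in 6.69% of 32851 promoter windows of this length. GAANNTTC and the other pair, TTCNNGAA, each read the same on both strands.
Hspa1a chr17:34972157-34972406: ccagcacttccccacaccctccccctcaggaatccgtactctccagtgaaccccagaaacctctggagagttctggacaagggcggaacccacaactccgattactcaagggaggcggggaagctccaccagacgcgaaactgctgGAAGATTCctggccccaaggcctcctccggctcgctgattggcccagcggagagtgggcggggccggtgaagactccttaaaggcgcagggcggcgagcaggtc
Hspa1b chr17:34959239-34959488: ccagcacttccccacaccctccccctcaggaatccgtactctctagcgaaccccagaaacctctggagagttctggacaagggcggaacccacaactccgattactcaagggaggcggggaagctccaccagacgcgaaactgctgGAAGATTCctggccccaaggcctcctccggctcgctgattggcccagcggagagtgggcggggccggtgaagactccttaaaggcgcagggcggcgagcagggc

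The FPKM of Hspa1b was 18.2 in HM_Ctrl against 51.2 in HM_DFX, and 5.62 in LM_Ctrl against 17.8 in LM_DFX, from 854, 2061, 248 and 1094 fragments. It was higher with DFX in each clone and higher in 4T1–HM than in 4T1–LM at each treatment, so that LM_DFX was at about the level of HM_Ctrl. Under DFX it was 2.81-fold higher in 4T1–HM (95% counting interval 2.60 to 3.05) and 3.17-fold higher in 4T1–LM (2.76 to 3.65). Between the clones it was 3.24-fold higher in HM_Ctrl than in LM_Ctrl (2.81 to 3.74) and 2.87-fold higher in HM_DFX than in LM_DFX (2.67 to 3.09). The log2 change with DFX was 1.44 in 4T1–HM and 1.51 in 4T1–LM, a difference of −0.06 that changed sign to 0.0043 under median–ratio scaling. Hspa1b was the only member called in 4 comparisons, DFX in each clone and the clones at each treatment.

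Hspa1a was listed at an FPKM of 0 in HM_Ctrl against 0.164 in HM_DFX, and 0.0214 in LM_Ctrl against 0.0924 in LM_DFX, which is 0, 7, 1 and 6 fragments. Its DFX libraries held more fragments than the controls in both clones. The 7 fragments in HM_DFX were at least 2.72-fold higher than the floor of 3 fragments in HM_Ctrl, while the exact counting interval for 7 against 0 begins at 1.68-fold. The ratio in 4T1–LM was 4.31 with a counting interval of 0.523 to 198, so no difference was detectable there at this depth. The levels of both copies are uncertain, since 70.1% of the 31-base words of Hspa1a and 68.1% of those of Hspa1b also occur in another gene. Of the words of Hspa1a, 63.8% are in Hspa1b, and 879 words of Hspa1a and 883 of Hspa1b occur in no other gene. Hspa1a further overlaps the antisense gene Gm20481 over 564 bases. The copies summed to an FPKM of 18.2, 51.4, 5.65 and 17.9 in HM_Ctrl, HM_DFX, LM_Ctrl and LM_DFX.

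Hspa8 encodes HSC70, the constitutive cytosolic HSP70, which also strips clathrin from vesicles and carries proteins to the lysosome in chaperone–mediated autophagy (chromosome 9 from 40800984 to 40810087). Its FPKM was 440 in HM_Ctrl against 299 in HM_DFX, and 401 in LM_Ctrl against 133 in LM_DFX. The controls were close to each other, both DFX libraries were lower, and LM_DFX was the lowest. The level with DFX was 1.47-fold lower in 4T1–HM (1.44 to 1.5) and 3.01-fold lower in 4T1–LM (2.95 to 3.07), and the latter was called. It was 2.24-fold higher in HM_DFX than in LM_DFX (2.19 to 2.30), against 1.10-fold higher in HM_Ctrl than in LM_Ctrl (1.08 to 1.11). The log2 changes with DFX, −0.55 and −1.58, differed by 1.03, the largest such difference among the members and the one that was called.

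Of the 31-base words of Hspa8, 44.8% are shared, mostly with Gm15459, a processed pseudogene on chromosome 5 from 5781615 to 5783555 that has 91.9% of its own words in Hspa8. Gm15459 was listed at an FPKM of 795 in HM_Ctrl against 537 in HM_DFX, and 706 in LM_Ctrl against 245 in LM_DFX. The FPKM of Hspa8 was thus below that of Gm15459, at a ratio of 0.545 to 0.568 in all 4 libraries. When the FPKM of both were added, the log2 change with DFX was −0.56 in 4T1–HM and −1.55 in 4T1–LM. The difference between the clones was then 0.99, just under 2-fold. A fragment of Gm15459 weighs more in such a sum, since in HM_Ctrl its FPKM of 795 came from 25829 fragments. The FPKM of Hspa8 there, 440, came from 31698. Fragments were not summed, so the side of 2-fold on which the pair falls was not settled.

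**Figure D3:**
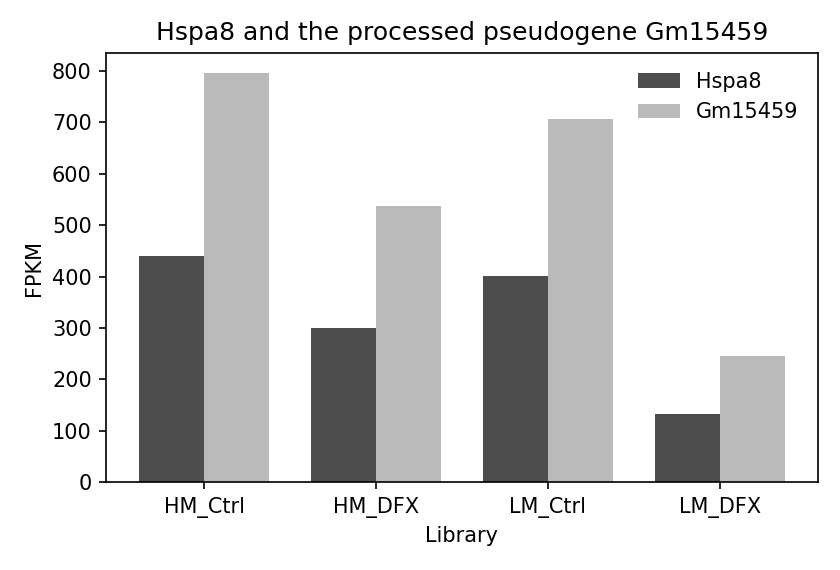
FPKM of Hspa8 (dark bars) and of the processed pseudogene Gm15459 (light bars) in the 4 libraries, 1 library per bar. The pseudogene is listed above Hspa8 in each library and both are lowest in LM_DFX, at 245 and 133.

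Constitutive and inducible HSP70 were compared as a ratio of FPKM. Hspa8 exceeded Hspa1b by a factor of 24.2 in HM_Ctrl against 5.85 in HM_DFX, and 71.4 in LM_Ctrl against 7.48 in LM_DFX. The clones were far apart without DFX and nearer to each other with it. The HSP70 of other compartments, which are not among the 10 genes, were higher with DFX. Hspa9, the HSP70 of the mitochondrial matrix, had an FPKM of 214, 569, 196 and 453 in HM_Ctrl, HM_DFX, LM_Ctrl and LM_DFX, with log2 changes of 1.41 and 1.20. Hspa5, which encodes BiP of the endoplasmic reticulum, had 472, 2053, 470 and 1051, with log2 changes of 2.12 and 1.16. Hspa8 stood at 0.931 and 0.854 of the level of Hspa5 in the controls of 4T1–HM and 4T1–LM, and at 0.146 and 0.127 with DFX. These ratios count no fragments of Gm15459, which held 25829 in HM_Ctrl beside the 31698 of Hspa8, and adding them would bring the control ratios above 1.

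**Figure D4:**
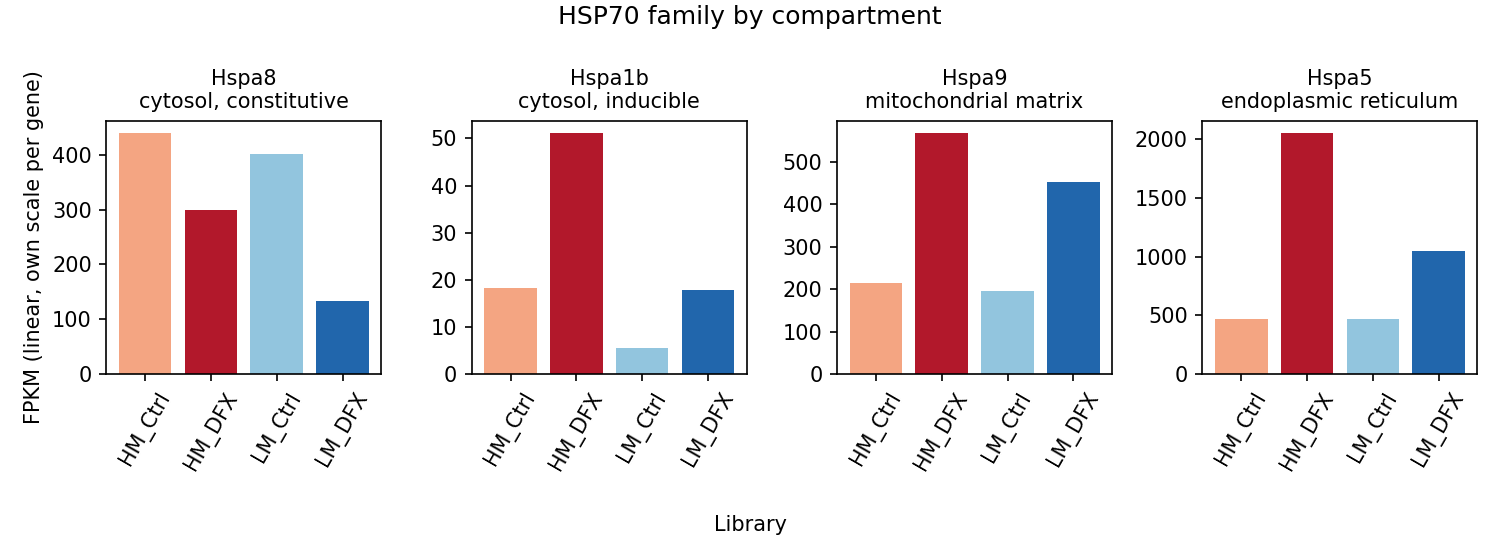
FPKM (linear axis from 0, a scale of its own for each gene) of Hspa8, Hspa1b, Hspa9 and Hspa5, the HSP70 genes of the cytosol, mitochondrial matrix and endoplasmic reticulum, in the 4 libraries, 1 library per bar. Hspa8 is lower with DFX in both clones, to 299 and 133, and the other genes are higher in both.

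Dnajb1 and Hsph1 encode partners of HSP70. Dnajb1 is a J–domain protein that stimulates the ATPase of HSP70 and brings it substrates (chromosome 8 from 83608193 to 83612653). Its FPKM was 18.6 in HM_Ctrl against 34.2 in HM_DFX, and 18.8 in LM_Ctrl against 28.2 in LM_DFX. Both DFX libraries were higher than the controls, whose ratio of 0.99 (0.905 to 1.08) was within counting error of 1. The ratio was 1.84 in 4T1–HM (1.69 to 1.99) and 1.5 in 4T1–LM (1.39 to 1.62), below the 2-fold call in each clone. The log2 difference of −0.01 between the controls took the other sign, 0.02, under scaling to the 75th percentile. Of its 31-base words 0.444% are shared. Neither of its 2 RefSeq windows holds GAANNTTC or TTCNNGAA. The second of them, from 83608298 to 83608547, lies inside the annotated extent of the gene.

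Hsph1 encodes HSP105, a large relative of HSP70 that acts as its nucleotide exchange factor (chromosome 5 from 149614287 to 149636376). Its FPKM was 54.5 in HM_Ctrl against 34.9 in HM_DFX, and 23.7 in LM_Ctrl against 13.6 in LM_DFX. Both 4T1–HM libraries were above both 4T1–LM libraries, and within each clone DFX was the lower. HM_Ctrl was 2.30-fold higher than LM_Ctrl (2.20 to 2.40) and HM_DFX was 2.56-fold higher than LM_DFX (2.43 to 2.70), and both differences were called. Under DFX it was 1.56-fold lower in 4T1–HM (1.5 to 1.63) and 1.75-fold lower in 4T1–LM (1.65 to 1.85), neither of them called. None of its words are shared with another gene. A TTCNNGAA lies in each of its RefSeq windows, letters that 7.17% of all windows hold.

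Hsp90aa1 and Hsp90ab1 encode the inducible and the constitutive cytosolic HSP90. Hsp90aa1 (chromosome 12 from 110690605 to 110702728) was at an FPKM of 544 in HM_Ctrl against 644 in HM_DFX, and 656 in LM_Ctrl against 575 in LM_DFX. It was higher with DFX in 4T1–HM, at a log2 change of 0.24, and lower in 4T1–LM, at −0.19. Hsp90ab1 (chromosome 17 from 45567775 to 45573271) had 1319, 960, 1814 and 1083 in the same order. The DFX libraries were lower in both clones, 1.37-fold in 4T1–HM (1.36 to 1.39) and 1.68-fold in 4T1–LM (1.66 to 1.69). Hsp90ab1 in LM_Ctrl was the highest level of any member in any library.

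No change of either HSP90 gene reached 2-fold. The ratio of Hsp90ab1 to Hsp90aa1 was 2.42 in HM_Ctrl against 1.49 in HM_DFX, and 2.76 in LM_Ctrl against 1.89 in LM_DFX, so the inducible form, the less abundant of the pair in every library, had a larger share with DFX than without it in both clones. Hsp90aa1 is uncertain, with 51.5% of its words shared, of which the most are in the pseudogene Gm12346. That pseudogene was listed at 12.7, 13.8, 14.3 and 10.3 FPKM in HM_Ctrl, HM_DFX, LM_Ctrl and LM_DFX, far below the gene. For Hsp90ab1 the share was 13.2%.

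Hspb1 encodes HSP25, a small heat shock protein that holds unfolded proteins without ATP and binds actin (chromosome 5 from 135887919 to 135889563). It had 2 fragments in HM_Ctrl, an FPKM of 0.116, and 0 in the other 3 libraries, so it was not detected there. With 3 fragments as the limit, a count of 0 allows an FPKM of up to 0.203 in HM_DFX, 0.185 in LM_Ctrl and 0.133 in LM_DFX. Of its words 55.4% are shared, the most of them with the pseudogene Hsp25-ps1, which was at 0 fragments in all 4 libraries. Its window is shown because the gene without detectable expression has 2 copies of GAANNTTC, in capitals, starting 117 and 97 bases before its start (plus strand, RefSeq, GRCm38.p6).
Hspb1 chr5:135887669-135887918: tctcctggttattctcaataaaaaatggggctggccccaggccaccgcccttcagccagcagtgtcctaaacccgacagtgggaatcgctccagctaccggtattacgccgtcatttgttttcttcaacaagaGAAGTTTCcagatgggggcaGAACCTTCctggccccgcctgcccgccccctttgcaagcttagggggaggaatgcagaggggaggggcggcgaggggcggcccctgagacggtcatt

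Hspd1 and Hspe1 encode HSP60 and HSP10, the ring and the lid of the mitochondrial chaperonin. They lie head to head on chromosome 1, Hspd1 on the minus strand from 55077835 to 55088243 and Hspe1 on the plus strand from 55088132 to 55091307, and these annotated extents overlap by 112 bases. The stretch from the inner of the 2 RefSeq starts of Hspd1 to the annotated start of Hspe1 is shown because it holds the heat shock units. It lies upstream of Hspe1 and of that inner start, and inside the annotated extent of Hspd1 (199 bases, build GRCm38.p6, plus strand). Capitals mark 1 GAANNTTC and 2 TTCNNGAA that overlap, which together make 2 patterns of 3 units, each unit turned against the next. Such a pattern of 3 units occurs in 0.466% of all windows.
Hspd1-Hspe1 chr1:55087933-55088131: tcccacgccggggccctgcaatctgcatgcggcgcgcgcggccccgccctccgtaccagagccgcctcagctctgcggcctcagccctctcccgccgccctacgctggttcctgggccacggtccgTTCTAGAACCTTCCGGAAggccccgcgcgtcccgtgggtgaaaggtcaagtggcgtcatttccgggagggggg

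The FPKM of Hspd1 was 281 in HM_Ctrl against 276 in HM_DFX, and 406 in LM_Ctrl against 260 in LM_DFX. LM_Ctrl stood above the other libraries, which were near each other. The log2 change with DFX was −0.03 in 4T1–HM, which became 0.11 under median–ratio scaling, and −0.64 in 4T1–LM. Hspe1 had 103 in HM_Ctrl against 86.5 in HM_DFX, and 153 in LM_Ctrl against 108 in LM_DFX, with log2 changes of −0.25 in 4T1–HM and −0.50 in 4T1–LM. It too was highest in LM_Ctrl, and between the controls both genes were lower in HM_Ctrl, by log2 values of −0.53 for Hspd1 and −0.56 for Hspe1. The ratio of Hspd1 to Hspe1 was 2.73, 3.19, 2.66 and 2.42 in HM_Ctrl, HM_DFX, LM_Ctrl and LM_DFX. None of these changes was called. Of the words of Hspd1 53.1% are shared and of those of Hspe1 30.5%, and the pseudogene Hspd1-ps3 was listed at 6.94 to 13.9 FPKM.

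GAANNTTC or TTCNNGAA stood in 7 of the 10 RefSeq windows of 7 members, and in 12.8% of all windows. The 7 are not separate, since Hspd1 and Hspe1 share their sites, the windows of Hspa1a and Hspa1b are near copies and those of Hsph1 overlap. One of the windows of Hspd1 had neither pattern. Among the 6 genes with a pattern were Hspa1b, which was called higher with DFX in both clones, and Hsph1, which was not called with DFX. They also included Hspb1, which was not detected. Dnajb1, second to Hspa1b among the 8 expressed members in its ratio with DFX in both clones, had neither pattern. Its second window lies inside the gene, and only exact patterns within 250 bases of a start were sought.

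Members that moved alike were found by the distance between their centered log2 profiles over the 4 libraries, given as a description of 4 values. The nearest were Hsp90ab1 and Hspe1 (0.26), Hspd1 and Hspe1 (0.28) and Hsp90ab1 and Hspd1 (0.33). The 5 protein–coding genes nearest to the median profile of the 10 genes, out of 6287, were Get4, Atad1, Palld, Uba3 and 1700123O20Rik, at distances of 0.03 to 0.05. That median profile, from −0.05 to 0.07, includes Hspa1a and Hspb1, which are near 0 in every library. Over the 8 expressed members it ran from −0.14 to 0.28, so the nearest genes rest on members without detectable expression as well.

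The genes that act with the members were examined in 9 lists. To set beside the counts of all these lists, 6.93% of all expressed genes were called higher with DFX in 4T1–HM and 12.4% lower. In 4T1–LM these shares were 7.09% and 8.72%. The medians of all expressed genes were −0.10 and −0.04. Hsf1, which encodes the factor HSF1, was at an FPKM of 31.9 in HM_Ctrl against 31.7 in HM_DFX, and 35.9 in LM_Ctrl against 37.8 in LM_DFX. The log2 change of −0.01 in 4T1–HM took the other sign, 0.12, under median–ratio scaling, and that in 4T1–LM was 0.07. These are RNA levels, and the activity of HSF1 was not measured. Hsf2, a related factor, had 9.39, 14.0, 5.08 and 9.09, with log2 changes of 0.53 and 0.73 under DFX. Of the 6 expressed genes of this list, 1 was called higher in 4T1–HM, Sirt1, a deacetylase that acts on HSF1, at 1.15 against 0.56 in 4T1–LM. No other gene of the list was called in either clone. Vcp, which encodes an ATPase that extracts ubiquitinated proteins, was at an FPKM of 114 in HM_Ctrl against 119 in HM_DFX, and 126 in LM_Ctrl against 78.9 in LM_DFX, and 46.3% of its words are shared.

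Of 7 expressed genes of the HSP70 and HSP110 families outside the 10 members, 1 was higher and 1 lower in 4T1–HM (Hspa9, and Hspa2, whose −1.03 was −0.95 and not called under median–ratio scaling) and 2 were higher in 4T1–LM (Hspa9 and Hspa4l). Hspa13, an HSP70 of microsomes, had log2 changes of 0.63 and 0.15. Of 11 expressed nucleotide exchange and binding factors of HSP70, 0 were called in 4T1–HM and 1 in 4T1–LM, Hspa4l, an HSP110 relative of Hsph1 with an FPKM of 26.7, 42.5, 8.92 and 19.5 in HM_Ctrl, HM_DFX, LM_Ctrl and LM_DFX. Bag3, the HSP70 factor of selective autophagy, had 22.0, 38.1, 23.3 and 25.8 in that order, and the exchange factor Hspbp1 had log2 changes of −0.43 in 4T1–HM and −0.78 in 4T1–LM. Of 16 J–domain genes, 1 was higher and 1 lower in 4T1–HM and 0 were called in 4T1–LM. The higher one was Dnajc21, a ribosome assembly factor, at 1.07, with 1.00 just under the call in 4T1–LM, and the lower one was Dnajb14 at −1.01, which was −0.93 and not called under median–ratio scaling. Dnajb6 had log2 changes of 0.79 and 0.72, with 22.7% of its words shared, and Dnajc5, which works at secretory vesicles, had 0.17 and 0.77. Of 18 HSP90 co–chaperones, 2 were higher and 2 lower in each clone. Fnip1 and Fnip2, the folliculin partners that slow the ATPase of HSP90, were higher in both, Fnip1 at 27.2, 80.6, 8.32 and 31 FPKM. Fkbp5, an immunophilin of steroid receptors, was lower in both, at 12.4, 4.20, 23.5 and 9.64. The other lower gene was Ttc4 in 4T1–HM, at −1.04, and Fkbp4 in 4T1–LM, at −1.06, but under median–ratio scaling they were −0.92 and −0.99 and not called.

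Of 14 endoplasmic reticulum genes, 6 were higher in 4T1–HM and 3 in 4T1–LM, with 0 lower and medians of 0.87 and 0.06. Of all expressed genes, 6.93% were higher and 12.4% lower in 4T1–HM, and 7.09% and 8.72% in 4T1–LM, with medians of −0.10 and −0.04. Dnajb9, a J–domain partner of BiP, had 20.1, 163, 4.91 and 32.0 FPKM in HM_Ctrl, HM_DFX, LM_Ctrl and LM_DFX. Dnajb9, Sdf2l1 and Hspa5 were called in both clones, and Creld2, Hyou1 and Manf in 4T1–HM. Of 18 mitochondrial chaperones and proteases, 2 were higher and 1, Oma1, was lower in 4T1–HM, at −1.01 (−0.90 and not called under median–ratio scaling), and 3 were higher in 4T1–LM, the third of them Dnaja3 at 1.26. The protease Lonp1, with 82.6, 223, 70.5 and 309 FPKM, and Hspa9 were higher in both clones. No change was called for Hspd1 and Hspe1 of the same compartment, nor for 15 of these 18 genes in each clone. The 14 genes of the cytosolic chaperonin TRiC and prefoldin had 0 calls in either clone, with Pfdn5, Pfdn1 and Vbp1 at −0.53, −0.60 and −0.16 in 4T1–HM and at −0.07, −0.14 and −0.56 in 4T1–LM. Of the small heat shock proteins, 5 of 10 were expressed, and Hspb8, the partner of Bag3, was the 1 called higher in 4T1–HM, at 1.67, with 0.88 in 4T1–LM. Hspb2 was the 1 called lower in 4T1–HM, at −1.28, and 0 were called in 4T1–LM. The FPKM of Hspb2 was low, 3.87 in HM_Ctrl against 1.00 in HM_DFX, and 26.7% of its words are shared.

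**Figure D5:**
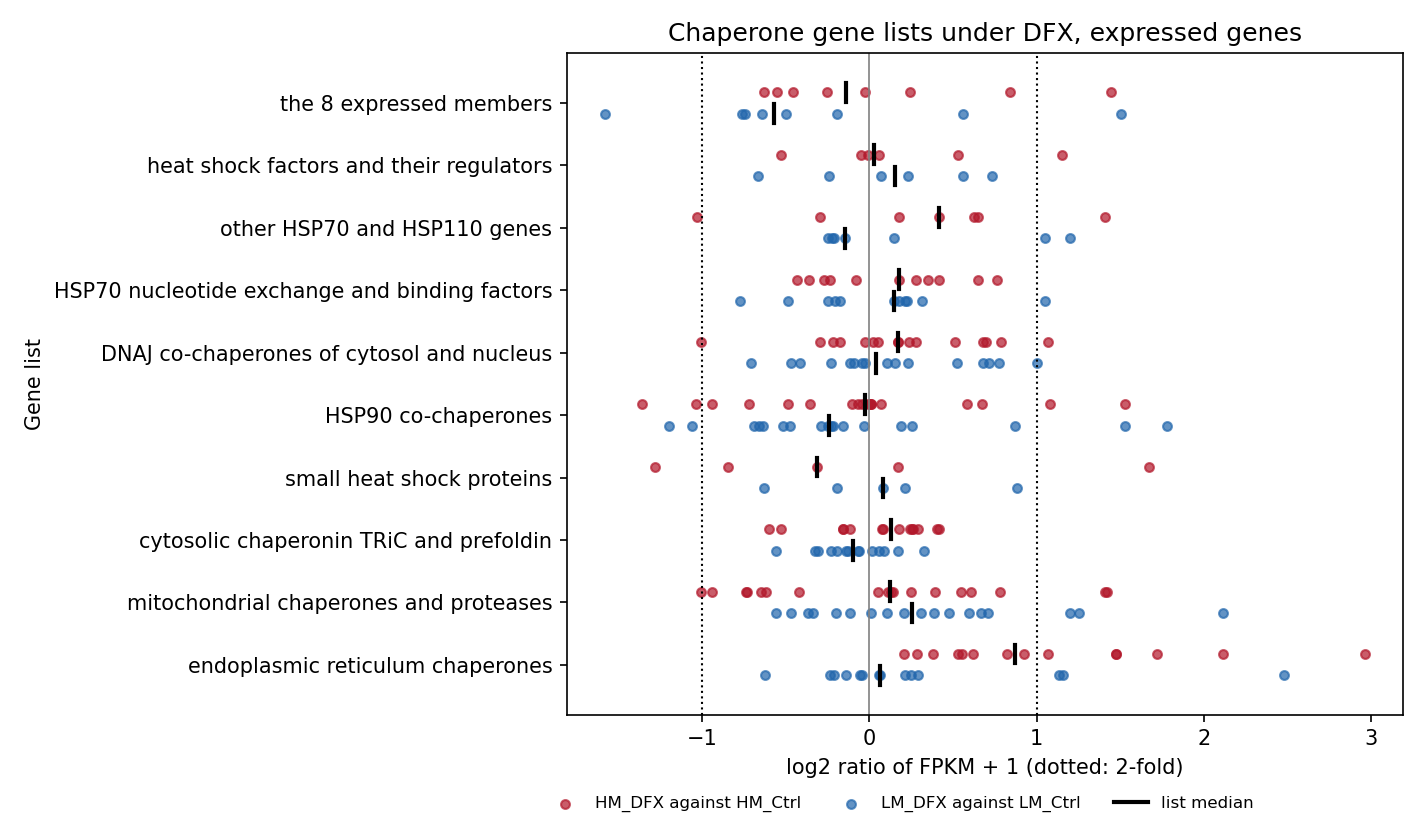
log2 ratio of FPKM + 1 between DFX and control for the 8 expressed members and the expressed genes of 9 chaperone lists, 4T1–HM in red and 4T1–LM in blue, 1 point per gene with the list median as a black bar and 2-fold lines dotted. The endoplasmic reticulum list has 6 and 3 genes past the upper line, and the TRiC and prefoldin list has 0 past either. Of all expressed genes, 6.93% in 4T1–HM and 7.09% in 4T1–LM were past the upper line.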

How the data were processed

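RNA of cultured cells was sequenced, 1 library for each of HM_Ctrl, HM_DFX, LM_Ctrl and LM_DFX, which were assigned by their labels. The authors selected poly(A) RNA, made directional libraries and deposited FPKM for 49585 genes, unfiltered, in 1 column per condition. The study describes its experiments as repeated, and whether a library holds RNA of 1 culture or of several is not given in the sources used here. The submitters' processing notes name FastQC, Trimmomatic, HISAT2, featureCounts and build mm10. Versions, the strand setting and the treatment of reads with several matches are not given in the sources used here. Reads shared between a gene and a copy or an antisense gene could therefore be split, added or lost.

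Fragments were recovered from the FPKM with exon lengths of GENCODE release M21. Of 18235 genes above 0 with matching coordinates, 96.8% came out within 0.02 of a whole number in all 4 libraries, and the totals were 16745608, 14363067, 15731521 and 21883854 for HM_Ctrl, HM_DFX, LM_Ctrl and LM_DFX. They served for depth, floors of 3 fragments and exact binomial (Clopper–Pearson) 95% intervals, which cover counting error only. Changes were computed from the FPKM with a pseudocount of 1 over the 12669 genes whose FPKM reached 1 in any library, and called at 2-fold. Shared sequence is the percent of a gene's 31-base words found elsewhere among the M21 transcripts. A gene with over 20%, as 7 of the 10 members, was taken as uncertain. Among the list genes named here this also holds for Vcp, Krt8 (36.0%), Hspb2 (26.7%), Pfdn5 (24.6%) and Dnajb6. The recovery and the calling were tested on simulated data with counting error alone. Variation between cultures and reads shared between genes were not simulated, so that test says nothing about them.

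The members and the 13 other lists (9 of chaperones, 4 of cell markers) were chosen with earlier results of these data known. Named were all members, Hsf1, Hsf2, at most 3 genes per list with the largest change under DFX among those with an FPKM of at least 10, and the 5 genes nearest to the members' median profile. Hspa2, Dnajb14, Ttc4, Fkbp4, Hspb2, Oma1, Creld2, Hyou1, Manf, Calr, Hscb, Krt19, Cldn4, Ptprc, Esr1, Pgr and the pseudogenes were named after their values were seen. Promoter windows of RefSeq (GRCm38.p6) were matched by symbol for 7 of the 10 members, and Hspa8, Hsp90aa1 and Hsp90ab1 had no entry. Other settings tried were 0.1 as the pseudocount, genes unfiltered, scaling by median ratios or by the 75th percentile, thresholds of 1.5-fold and 4-fold, and the members without shared sequence. The sum of Hspa8 and Gm15459 was added after seeing the data. Python 3.11.15, numpy 2.4.6, pandas 2.3.3, scipy 1.17.1 and matplotlib 3.10.9 were used.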

Additional observations from a re-analysis of the deposited data

Results flagged for a closer look

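Only the expressed members and the list genes named by the rule above were searched for changes of opposite sign with DFX in the clones. There were 3, 1 member and 2 list genes, and the difference was not tested because each condition is 1 library. List genes outside that rule also had opposite signs, among them Calr (0.62 in 4T1–HM and −0.62 in 4T1–LM) and Hscb (−0.73 and 0.48). Krt19 had −0.19 and 1.14, and the latter was called. The log2 change of Hsp90aa1 was 0.24 in 4T1–HM and −0.19 in 4T1–LM, a difference of 0.43. That of Vcp was 0.06 in 4T1–HM and −0.67 in 4T1–LM, a difference of 0.73. For Hsf1 the values were −0.01 and 0.07, a difference of −0.080, and under median–ratio scaling the first became 0.12, so that the signs were no longer opposite. None of the changes of Hsp90aa1, Vcp and Hsf1 reached 2-fold.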

How the results depend on the processing

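No paired analysis was possible because each condition is 1 library and the labels give no replicate numbers, and for the same reason no replicate could be left out. Over 40 changes of members (8 genes in 5 comparisons), a pseudocount of 0.1, no filter, median–ratio scaling and 75th percentile scaling moved none across 2-fold and changed the sign of 3 (Hspd1 with DFX in 4T1–HM, Dnajb1 between the controls and the Hspa1b difference between the clones). The largest move was 0.14. Of 60 changes of 29 named list genes, the same settings changed the sign of 1 (Hsf1) and the call of 1 (Dnajc21 in 4T1–LM, to 1.07). Under median–ratio scaling, Hspa2, Dnajb14 and Oma1 were no longer called lower in 4T1–HM, 1 instead of 2 HSP90 co–chaperones was lower in each clone, and 3 instead of 6 epithelial markers were lower in 4T1–HM. Median–ratio scaling moved the median of all genes in 4T1–HM from −0.10 to 0.00 and the share of higher among called genes from 35.9% (878 higher, 1568 lower) to 46.7% (1119 and 1276). The threshold decided the counts of members. At 1.5-fold, 2 were higher and 1 lower with DFX in 4T1–HM, 4 were lower in 4T1–LM, and 2 differed between the DFX changes. Of the 12669 expressed genes, 2031 were then higher and 3297 lower in 4T1–HM, and 2088 and 2528 in 4T1–LM. For the difference between the DFX changes, 1238 were higher and 2078 lower. At 4-fold, all of these counts and those between the clones were 0. Without the members of shared sequence, which leaves Hsp90ab1, Hsph1 and Dnajb1, 0 were higher with DFX in either clone, 0 were lower in 4T1–LM, 0 differed between the DFX changes, and 1, Hsph1, was higher in 4T1–HM than in 4T1–LM with and without DFX. The median of the members was then −0.46 with DFX in 4T1–HM, −0.74 in 4T1–LM and −0.014 between the controls. Under median–ratio scaling it was −0.0047 in 4T1–HM and −0.50 in 4T1–LM. With no filter, and so all 10 genes, it was −0.35 in 4T1–LM, −0.022 between the controls and 0.13 between the DFX libraries. With a pseudocount of 0.1, the genes called over the whole table rose to 1234 higher and 2397 lower in 4T1–HM and to 1349 and 1721 in 4T1–LM, against 878 and 1568 and 898 and 1105. Apart from the constructions named, the cause was not tested. Depth limits Hspa1a and Hspb1, which had at most 7 fragments in a library.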
